A study of Mus musculus with 24 samples.

Results

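Described here are 8 genes of the myelin sheath, Mbp, Mobp, Cnp, Mag, Mog, Cldn11, Mal and Opalin, together with Apod, which encodes the lipid-carrying protein apolipoprotein D. They were taken by symbol, and all 9 were found among the 24411 genes listed in each of the 3 deposited tables. RNA was sequenced from bulk hippocampal tissue of aged C57/Bl6 male mice given the young blood plasma preparation (n = 6), the young platelet fraction (n = 6) or saline (n = 5), and from microglia isolated from the hippocampus of aged mice given platelet factor 4 (PF4; n = 4) or saline (n = 3). By the study's methods, mice aged 20 months were injected into a vein 8 times in 24 days, and PF4 was given at 5 μg/ml. The young platelet fraction is the platelets spun out of the plasma preparation of young mice, and PF4 is a chemokine that platelets release. Saline was the only control in both experiments, the same 5 saline hippocampi served both treatments, and no group carried a genetic change named in the labels. Counted reads per library ran from 6586357 to 7739868 in young plasma hippocampi, from 6763608 to 7438930 in young platelet fraction hippocampi and from 6140510 to 10522699 in saline hippocampi. They ran from 25401175 to 31649835 in PF4 microglia and from 19855188 to 36342162 in saline microglia.

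Myelin is the stack of membrane that oligodendrocytes wrap around axons, and in the hippocampus it is densest in the fibre layers and in the fimbria and alveus at its border. Mbp and Mobp encode basic proteins that hold the inner faces of the membrane together, and the mRNA of both is carried out of the cell body into the processes that build the sheath. Cnp encodes an enzyme of the cytoplasmic channels in myelin, Mag an adhesion protein of the inner turn that faces the axon, and Mog a protein of the outermost surface. Cldn11 encodes the claudin of the junctions within myelin, Mal a lipid-raft protein of membrane traffic, and Opalin a membrane protein of oligodendrocytes. Apod is a lipocalin that oligodendrocytes and other glia make, and it is known for its rise in the ageing brain.

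In oligodendrocytes the transcription factors SOX10 and MYRF switch on myelin genes, so promoter windows were read for the core letters each factor is known to bind. Each window ran from 250 bases before the annotated start to a short stretch past it. The windows of 8 of the 9 genes were read from RefSeq (build GRCm38.p6, that is mm10), and that of Mbp was not used here. The letters searched on both strands were ACAAAG and ACAATG for SOX factors and CTGGCAC and CTGGTAC for MYRF. For the 6 genes with a match, the 250 bases before the start are printed to show where the letters stand. They read 5′ to 3′ on the strand of the gene, with SOX and MYRF letters in capitals. All matches lay before the start. Mag had 3 annotated starts, and the window printed is 1 of them.
Mag, chr7:30914864-30915113, minus strand: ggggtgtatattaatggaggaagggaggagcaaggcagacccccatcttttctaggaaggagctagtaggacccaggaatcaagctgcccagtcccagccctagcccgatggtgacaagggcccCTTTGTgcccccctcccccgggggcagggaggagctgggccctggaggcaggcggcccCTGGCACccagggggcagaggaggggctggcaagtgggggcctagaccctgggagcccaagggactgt
Mobp, chr9:120149492-120149741, plus strand: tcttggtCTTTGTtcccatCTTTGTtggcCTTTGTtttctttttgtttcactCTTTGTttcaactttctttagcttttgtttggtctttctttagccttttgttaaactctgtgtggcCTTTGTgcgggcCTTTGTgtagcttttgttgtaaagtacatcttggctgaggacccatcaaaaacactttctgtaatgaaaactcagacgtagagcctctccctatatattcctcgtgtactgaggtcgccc
Cnp, chr11:100574689-100574938, plus strand: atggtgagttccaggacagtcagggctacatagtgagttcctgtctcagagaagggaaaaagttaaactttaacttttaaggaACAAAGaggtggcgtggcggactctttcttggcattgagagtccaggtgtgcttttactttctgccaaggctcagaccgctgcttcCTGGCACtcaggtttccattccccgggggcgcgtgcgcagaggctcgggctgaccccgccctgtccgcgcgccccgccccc
Apod, chr16:31314809-31315058, minus strand: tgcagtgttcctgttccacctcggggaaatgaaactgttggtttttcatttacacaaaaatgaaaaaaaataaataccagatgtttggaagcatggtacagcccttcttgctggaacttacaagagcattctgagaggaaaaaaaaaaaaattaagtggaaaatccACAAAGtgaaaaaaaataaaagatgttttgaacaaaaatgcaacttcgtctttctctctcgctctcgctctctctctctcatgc
Mog, chr17:37023399-37023648, minus strand: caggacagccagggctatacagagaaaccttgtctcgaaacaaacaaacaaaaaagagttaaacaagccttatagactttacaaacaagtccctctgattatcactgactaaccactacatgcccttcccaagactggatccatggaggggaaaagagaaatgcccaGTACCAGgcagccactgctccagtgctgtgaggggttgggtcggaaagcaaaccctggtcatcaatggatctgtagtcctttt
Opalin, chr19:41077114-41077363, minus strand: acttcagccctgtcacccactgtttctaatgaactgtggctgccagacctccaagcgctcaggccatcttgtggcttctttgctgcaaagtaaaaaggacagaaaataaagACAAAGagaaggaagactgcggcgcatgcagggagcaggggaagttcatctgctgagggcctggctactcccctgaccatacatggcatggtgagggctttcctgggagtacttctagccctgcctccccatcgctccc

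The letters ACAAAG stood in the windows of 5 of the 8 genes (Mag, Mobp, Cnp, Apod and Opalin), against 16.5% of all 32851 promoter windows, and Mobp held them 6 times. ACAATG stood in none of the 8, against 10.7% of all windows. CTGGCAC stood in Mag and Cnp, in 3 of the 10 windows (4.19% of all windows), and CTGGTAC in Mog, in 1 of the 10 (1.83%). Of those 3 windows, 2 are overlapping windows of Mag that hold the same copy of CTGGCAC, so they are not separate matches. The same 2 windows also share their copy of ACAAAG. Within a window, no 2 of these matches overlapped. A GC box (GGGCGG, 32.7% of windows) was found in Cnp only, and no window held TATAAA (12.4% of windows). Mal and Cldn11 had none of the SOX or MYRF letters. Apod, which followed the sheath genes less closely than they followed each other, held a SOX core and had the lowest GC content of the 6 printed windows, 36.4%, with 40.8% in Mobp and 66% in Mag. These matches describe the letters of the windows only.

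Levels were compared between genes as RPM (reads scaled to the library total) per kilobase of the longest principal transcript in GENCODE vM21. Mbp was highest, at 1562 ± 435 in young plasma hippocampi, 1586 ± 325 in young platelet fraction hippocampi and 1102 ± 301 in saline hippocampi (SD, n = 6, 6 and 5). Cnp came next, with 346 ± 80.3, 359 ± 52.5 and 251 ± 51.8 in the same groups, and Opalin was lowest, with 22.9 ± 5.82, 27.0 ± 4.62 and 15.7 ± 3.53. In saline hippocampi the genes between them were Mag (102 ± 32.3), Mobp (75.6 ± 20.5), Apod (70.2 ± 9.91), Cldn11 (64.4 ± 15.9), Mal (40.8 ± 10.9) and Mog (38.3 ± 10.4). Each of these 6 neighbours overlapped the next within 1 SD, whereas Mbp, Cnp and Opalin stood clear of their neighbours. With the merged exons of each gene as its length, Mobp stood below Apod and Cldn11 in this order. Mbp alone took 0.457 to 1.04% of counted reads in young plasma hippocampi, 0.557 to 0.929% in young platelet fraction hippocampi and 0.353 to 0.725% in saline hippocampi. No exon of the 9 genes overlapped an exon of another gene in that annotation.

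The first question was whether the young blood plasma preparation changed these genes in the aged hippocampus. All 9 were higher than in saline hippocampi at the threshold of the study's methods, an unadjusted P of 0.05, and 0 passed Benjamini-Hochberg adjustment (limma, adjusted p = 1.00 for each; edgeR and DESeq2 also 0). Higher calls made up 1.85% of the 13594 genes tested. The median difference of the 9 was 0.51 on the log2 scale, with a range of 0.44 (Cnp) to 0.57 (Mog), against a median of -0.01 over all genes tested. None of the 9 separated the groups completely, as 0.103% of genes did with every plasma hippocampus above every saline one. In both tests of the treatments, values are normalized counts, that is read counts scaled by a size factor for each library, and differences are of log2(normalized count + 1).

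Apod had the smallest p of the 9. It had a lowest, median and highest value of 1209, 1345 and 2431 in young plasma hippocampi, against 897, 1002, 1077, 1102 and 1285 in saline hippocampi. The groups overlapped by 1 plasma mouse, the highest plasma value being that of mouse 7150, and 5 of 6 plasma mice lay above every saline mouse. The difference was 0.49 ± 0.16 (SE; P = 0.00981), and a two-sided exact permutation test over the mice gave P = 0.00866.

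Mbp ranged from 33568 to 77822 with a median of 55798 in young plasma hippocampi, against 25693, 32342, 41153, 42229 and 53197 in saline hippocampi. The groups overlapped widely, and 3 of 6 plasma mice lay above every saline mouse. The difference was 0.49 ± 0.22 (P = 0.0427), and the exact permutation P was 0.0952. Mag, the adhesion protein of the inner turn, had 1668, 2650 and 3866 as lowest, median and highest in plasma hippocampi, against 1082, 1504, 1818, 2145 and 2577 in saline hippocampi, a difference of 0.53 ± 0.24 (P = 0.0437; exact permutation P = 0.0909). Mag and Mbp were thus the 2 genes nearest to the threshold. The other 6 had P between 0.019 (Opalin) and 0.0348 (Mal), and 4 of 6 plasma mice lay above every saline mouse for each of them. By the exact permutation test, Apod, Mog (P = 0.0476) and Opalin (P = 0.0476) passed 0.05, and the other 6 gave 0.0519 to 0.0952.

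**Figure D1:**
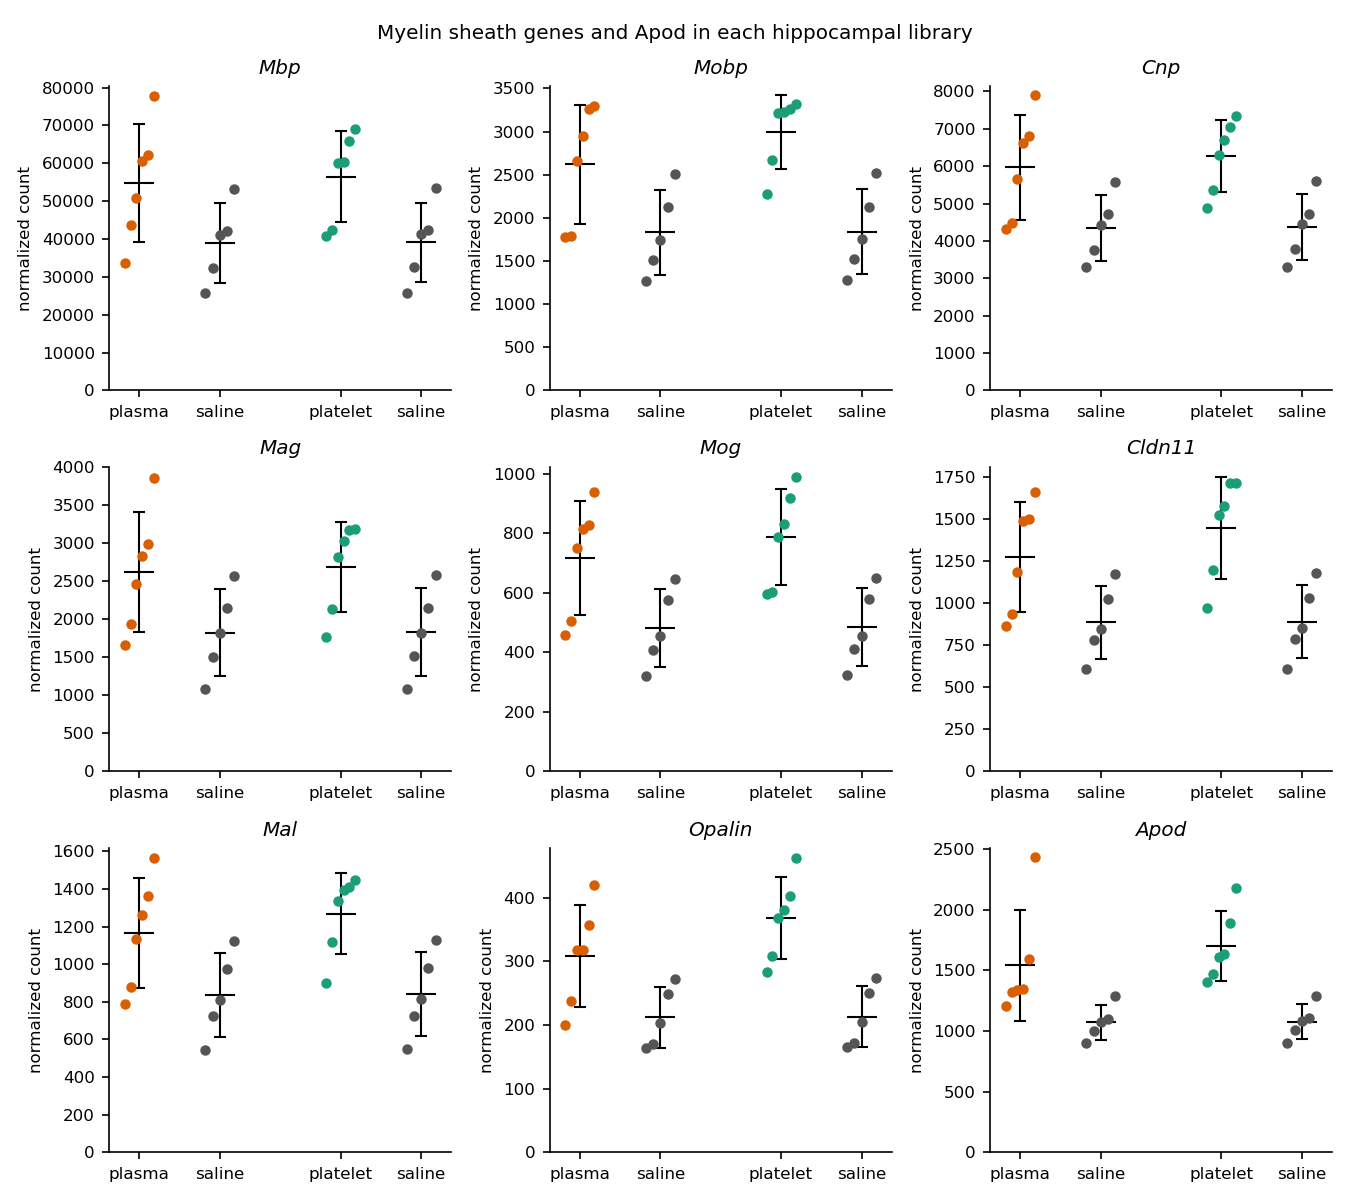
Normalized counts of the 9 genes in each hippocampal library (points), with the mean and SD (bars), for young plasma and saline mice from 1 deposited table and for young platelet fraction and saline mice from the other; the 5 saline mice are the same in both. In Apod and Opalin every platelet fraction point lies above every saline point, whereas the plasma points overlap the saline points in all 9 genes.

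Whether the genes passed with plasma turned on single mice. Without saline mouse 7146, the lowest of all 17 for the sheath genes, 1 of the 9 passed, and without saline mouse 7152 or 7155, 4 and 5 passed. Without plasma mouse 7150, the highest of all 17, 4 passed, and without plasma mouse 7144 or 7156, 5 passed in each case. Without plasma mouse 7159, 6 passed. Over all genes, higher calls numbered 168 to 327 when single mice were left out (176 without saline mouse 7146), against 251 with all mice. Apod passed under each of these omissions, with differences of 0.35 to 0.56, whereas every sheath gene lost its call under at least 1 of them. The differences of the sheath genes stayed above 0 throughout, the lowest being 0.34 for Mal without saline mouse 7146. The median difference of the 9 ran from 0.39 to 0.61. With TMM scaling, library totals, edgeR or DESeq2, all 9 passed.

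The second question was the same for the young platelet fraction. All 9 genes were again higher at an unadjusted P of 0.05, where higher calls made up 2.41% of the 13603 genes tested (279 genes in place of 328 under TMM scaling, which gave 256 lower calls in place of 199). With limma and edgeR 0 of the 9 passed adjustment (limma adjusted p = 0.785 to 0.998), and with DESeq2 3 did, Apod (adjusted p = 0.00699), Opalin (0.0156) and Mobp (0.049). The median difference of the 9 was 0.65, with a range of 0.53 (Cnp) to 0.79 (Opalin), against 0.00 over all genes. Apod and Opalin separated the groups completely, as 0.14% of the genes tested did with every platelet fraction hippocampus higher.

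Apod had 1405, 1623 and 2177 as lowest, median and highest value in young platelet fraction hippocampi, against 901, 1007, 1084, 1107 and 1291 in saline hippocampi. All 6 treated mice lay above all 5 saline mice. The difference was 0.65 ± 0.12 (SE; P = 0.000115), 56.7% higher on this scale, and the exact permutation P was 0.00433, the smallest that 6 against 5 mice can give in a two-sided test. Opalin had 284, 375 and 463 in platelet fraction hippocampi, against 165, 172, 205, 250 and 275 in saline hippocampi. Its groups were also apart, by 1 narrow step between 275 and 284, with a difference of 0.79 ± 0.16 (P = 0.000234; exact permutation P = 0.00433).

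Mobp had 2275, 3223 and 3321 in platelet fraction hippocampi, against 1276, 1521, 1752, 2132 and 2522 in saline hippocampi. Only platelet fraction mouse 7145 lay within the saline range, and the difference was 0.73 ± 0.16 (P = 0.000505; exact permutation P = 0.00866). Mog, of the outermost turn, had 596, 810 and 989 in platelet fraction hippocampi, against 322, 411, 456, 581 and 650 in saline hippocampi (difference 0.72 ± 0.18; P = 0.00176; exact permutation P = 0.0173). Platelet fraction mice 7145 and 7151 were the 2 that lay among the saline mice for Mog. The same 2 mice were the lowest of their group for 8 of the 9 genes, Apod excepted, where 7145 and 7148 were.

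Cldn11 was higher by 0.71 ± 0.18 (P = 0.0017; exact permutation P = 0.0173), Mal by 0.62 ± 0.17 (P = 0.00359; 0.0216) and Cnp by 0.53 ± 0.14 (P = 0.00209; 0.0173). Mbp and Mag again had the largest P of the 9. Mbp had 40918, 60316 and 69085 in platelet fraction hippocampi, against 25800, 32558, 41349, 42448 and 53460 in saline hippocampi, a difference of 0.54 ± 0.19 (P = 0.0118; exact permutation P = 0.0433). Mag had 1767, 2926 and 3186 in platelet fraction hippocampi, against 1087, 1515, 1827, 2156 and 2590 in saline hippocampi, a difference of 0.58 ± 0.21 (P = 0.0171), and its exact permutation P of 0.0519 was the only one of the 9 above 0.05. Leaving out any single mouse left all 9 past the threshold, except saline mouse 7146, without which Mag missed it (difference 0.41). Over all genes, higher calls numbered 217 to 529 under these omissions.

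The 2 treatments share their saline mice, so their differences from saline were not set against each other. The young platelet fraction and young plasma hippocampi were compared directly instead, in 1 fit of all 17 libraries. None of the 9 genes passed at an unadjusted P of 0.05 with limma, edgeR or DESeq2 (1.09% of 13906 genes were called higher and 1.14% lower, 152 and 159 genes, or 109 and 210 when scaled by library totals), and the smallest P was 0.141, for Opalin. The fitted difference was above 0 for all 9, with a median of 0.15 against 0.01 over all genes. It ran from 0.05 for Mag (95% interval -0.41 to 0.51) to 0.27 for Opalin (-0.10 to 0.64), and was 0.16 for Apod (-0.15 to 0.47) and 0.06 for Mbp (-0.36 to 0.48). Without plasma mouse 7150, Apod (0.30) and Opalin (0.37) passed as higher in platelet fraction hippocampi, as 157 of 13864 genes did. Without plasma mouse 7147 or 7594 or platelet fraction mouse 7154 or 7157 the small differences of Mag, Mbp or Cnp turned below 0.

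**Figure D2:**
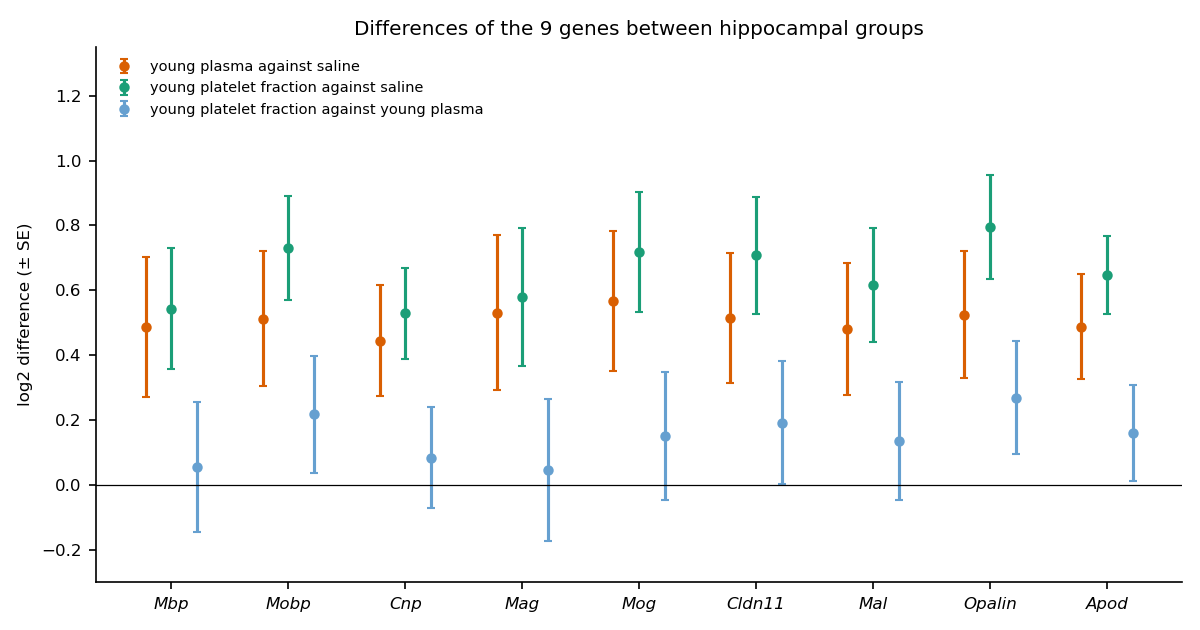
Differences of log2(normalized count + 1) for the 9 genes in the 3 hippocampal comparisons (points, with SE bars). The points against saline lie between 0.44 and 0.79, and those of young platelet fraction against young plasma between 0.05 and 0.27.

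The 8 sheath genes rose and fell together from mouse to mouse. After the group means were removed, the 28 pairs of sheath genes had Pearson correlations of 0.85 to 0.98 over the 17 hippocampi, with a median of 0.93, the closest pair being Cnp and Mag. Given as a deviation from its mean over all mice on the log2 scale, the mean of the 8 genes had an SD of 0.43 between mice, whereas the 8 genes differed from each other within a mouse by a median SD of 0.09 and at most 0.17. The 9 calls of each treatment are therefore not 9 separate observations. The mean of the sheath genes was 0.10 ± 0.39 in young plasma hippocampi, 0.24 ± 0.27 in young platelet fraction hippocampi and -0.41 ± 0.38 in saline hippocampi (SD, n = 6, 6 and 5). The 7 highest of the 17 mice were 4 platelet fraction and 3 plasma mice, and the 2 lowest were saline mice 7146 (-0.92) and 7152 (-0.62). Saline mouse 7143 was at 0.04, rank 9 of the 17. Plasma mice 7147 (-0.35) and 7594 (-0.39) and platelet fraction mice 7145 (-0.13) and 7151 (-0.07) lay within the saline range. In bulk tissue, fewer oligodendrocytes and less of these transcripts per oligodendrocyte cannot be told apart.

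Apod followed the sheath genes less closely. Its correlation with each of them was 0.55 (Mobp) to 0.65 (Mbp) after the group means were removed, against 0.85 or more among the sheath genes. Saline mice show the difference: 7143 and 7596 had sheath genes at 0.04 and -0.15 but Apod at -0.35 and -0.49, whereas 7155 had sheath genes at -0.40 and Apod at -0.13. Apod minus the sheath mean averaged -0.01 ± 0.27 in plasma hippocampi, 0.00 ± 0.23 in platelet fraction hippocampi and 0.01 ± 0.34 in saline hippocampi, so the group means of Apod and of the sheath genes lay close together although single mice did not.

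**Figure D3:**
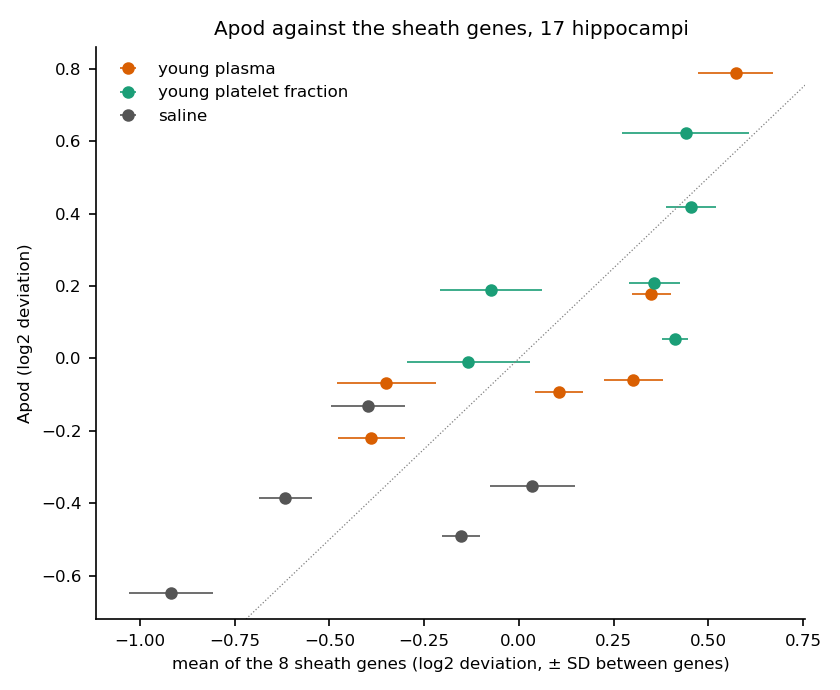
Apod against the mean of the 8 sheath genes in 17 hippocampi, both as log2 deviation from the mean over all mice (horizontal bars, SD between the 8 genes; dotted line, equal deviation). All 5 saline mice lie at -0.13 or lower for Apod and 4 of them at -0.15 or lower for the sheath genes, and the bars are short beside the distance between mice.

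Genes with a mean of 50 normalized counts or more were ranked by likeness. Of 10619 such genes, those whose levels were most like the mean of the 9 genes over the 17 mice, with group means removed, included Qdpr (r = 0.97), Sept4 (0.97), Hapln2 (0.95), Plekhb1 (0.95), Tmem88b (0.94), Galnt6 (0.93) and Pllp (0.93). Pllp encodes the myelin protein plasmolipin and Hapln2 a matrix protein of the nodes of Ranvier. In all, 15 genes reached 0.9. For Apod alone none of 10627 genes reached 0.9. The 5 genes most like it were Ly86 (0.85), Oasl2 (0.80), Ctss (0.80), Psmb8 (0.79) and Gjb1 (0.79). Ctss encodes the lysosomal protease cathepsin S of microglia, Ly86 a partner of a Toll-like receptor homologue on immune cells, Oasl2 and Psmb8 are interferon-inducible genes, and Gjb1 encodes a connexin of oligodendrocytes. The sheath genes ranked 56th (Mbp) to 207th (Mobp) in likeness to Apod. These values describe libraries that share their groups, tables and dissections.

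Other genes of myelin were called in part. Of 17 other myelin sheath proteins, 5 were higher in young plasma hippocampi and 13 in young platelet fraction hippocampi than in saline hippocampi, and 0 were lower, with medians of 0.35 and 0.53. The lowest differences on this list were -0.03 and -0.08. Of 7 enzymes of myelin lipids, 2 were higher with plasma and 5 with the platelet fraction. One of them, Ugt8a, which makes galactosylceramide, was higher with the platelet fraction (0.58 ± 0.17; P = 0.00521; exact permutation P = 0.0216) and not past the threshold with plasma (0.29 ± 0.22; P = 0.201; 0.264). Of 5 soluble and metabolic proteins of oligodendrocytes, 4 and 5 were higher, among them the iron carrier transferrin, Trf. It differed by 0.53 ± 0.23 with plasma (P = 0.0383; exact permutation P = 0.0823) and by 0.59 ± 0.21 with the platelet fraction (P = 0.0142; 0.0476). Counts against saline do not compare the treatments. In the direct comparison, 1 of the 17 sheath proteins was higher in platelet fraction than in plasma hippocampi. The 7 lipid enzymes and the 5 soluble and metabolic proteins had 0 higher, and 0 genes of these lists were lower.

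Regulators and earlier stages of the lineage were also counted. Of 6 transcription factors tested, 3 were higher with each treatment. Sox10 had 76.6, 108 and 132 as lowest, median and highest in plasma hippocampi, against 56.8 to 99.2 in saline hippocampi (0.56 ± 0.18; P = 0.00851; exact permutation P = 0.0216), and in platelet fraction hippocampi the difference was 0.44 ± 0.18 (P = 0.0286; 0.039). Myrf differed by 0.14 ± 0.29 with plasma (P = 0.629; exact permutation P = 0.693) and 0.23 ± 0.29 with the platelet fraction (P = 0.442; 0.519), at levels of 39 to 151 in single mice. Of 7 genes of precursors and new oligodendrocytes tested, 2 were higher with each treatment. Pdgfra, the receptor that marks precursors, differed by 0.32 ± 0.41 with plasma (P = 0.452; exact permutation P = 0.481) and 0.30 ± 0.36 with the platelet fraction (P = 0.428; 0.532).

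Apod was also set beside other lipocalins and apolipoproteins, of which 4 of 6 were tested and 0 passed with either treatment in limma at unadjusted P. Ptgds, a lipocalin of meninges, choroid plexus and oligodendrocytes, ranged from 4125 to 12015 in plasma hippocampi and from 3501 to 19302 in platelet fraction hippocampi, against 3102 to 9248 in saline hippocampi (plasma table). Its spread between mice was wide and its differences were 0.47 ± 0.32 (P = 0.171; exact permutation P = 0.242) and 0.48 ± 0.41 (P = 0.264; 0.351). Apoe, the apolipoprotein that astrocytes secrete, differed by 0.07 ± 0.11 with plasma (P = 0.536; exact permutation P = 0.758) and by 0.02 ± 0.13 with the platelet fraction (P = 0.856; 0.866).

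**Figure D4:**
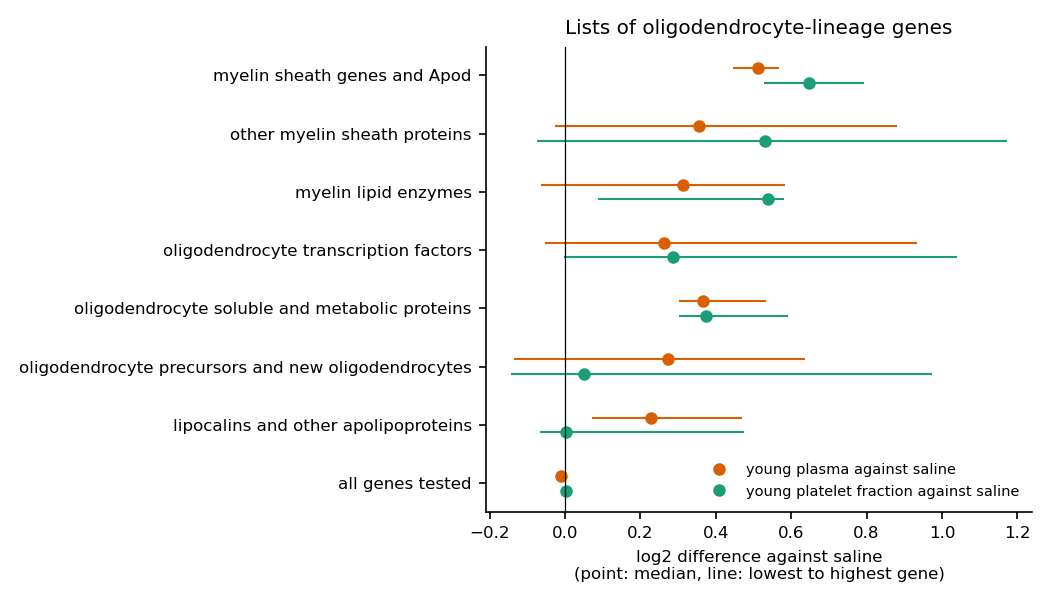
Median (points) and lowest to highest (lines) difference of log2(normalized count + 1) against saline over the genes tested in each list, for young plasma and young platelet fraction hippocampi; for all genes tested only the median is drawn. The medians of the 9 genes are 0.51 and 0.65, and those over all genes -0.01 and 0.00.

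Transcripts of other cells were measured in the same libraries. The 4 dentate granule cell genes summed to 1373 to 3280 in plasma hippocampi and 1972 to 2992 in platelet fraction hippocampi, against 1669 to 4931 in saline hippocampi, with Prox1 lower in plasma hippocampi (-0.55 ± 0.19; P = 0.0114; exact permutation P = 0.026). The 9 ependymal genes summed to 185 to 697 and 148 to 843, against 174 to 314 in saline hippocampi, and 1 of the 9 was higher with each treatment. Their fitted differences were all above 0, with medians of 0.48 with plasma and 0.71 with the platelet fraction, beside 0.51 and 0.65 for the 8 sheath genes and Apod. Without the 5 libraries described next, the ependymal medians were 0.21 and 0.53. Ttr, the defining choroid plexus gene, ranged from 1897 to 43232 and from 1630 to 55264, against 848 to 30495 in saline hippocampi (plasma table), and none of the 7 choroid plexus genes passed in either comparison (medians 0.37 and 0.36). Of the 6 neuronal, 7 astrocyte, 5 endothelial, 8 fibroblast and pericyte and 8 microglial genes, 0 passed with plasma, and 1 astrocyte and 1 microglial gene were lower with the platelet fraction. No defining gene of these lists was at 0 in a group. Over the 17 mice with group means removed, the mean of the sheath genes had a correlation of 0.58 with the ependymal list, 0.52 with the microglial list, 0.04 with the choroid plexus list, -0.24 with the dentate granule list and -0.65 with the fibroblast and pericyte list. Their part in the result was not tested.

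A group of 5 hippocampal libraries stood apart from the others, namely saline mice 7146 and 7152, plasma mice 7147 and 7150 and platelet fraction mouse 7148. They had 109 to 188 normalized counts of Pdgfra and 643 to 907 of the astrocyte water channel Aqp4, against 292 to 530 and 969 to 1405 in the 12 others. They held both extremes of the sheath genes, with means of -0.92 to 0.57, against -0.40 to 0.45 in the others. Without these 5 libraries, an omission chosen after seeing the data, 1 of the 9 genes passed with plasma (Apod, 0.28), with a median of 0.28, and 6 passed with the platelet fraction, with a median of 0.45. Over all genes, 172 of 13659 tested were then called higher with plasma and 257 of 13796 with the platelet fraction. The 3 that no longer passed with the platelet fraction were Mbp (0.23), Mag (0.23) and Mal (0.34). Apod then differed by 0.61 and also passed as higher in platelet fraction than in plasma hippocampi (0.33), as 195 of 14015 genes did. Without these libraries, 1 and 3 of the 17 other sheath proteins were higher with plasma and with the platelet fraction, 1 and 1 of the 7 lipid enzymes, 2 and 1 of the 6 transcription factors, 0 and 2 of the 7 precursor genes, and 0 of the 5 soluble and metabolic proteins with either treatment. The microglial list then had 1 and 3 of its 8 genes lower. Log2 reads had a correlation with the mean of the sheath genes of -0.39 over the 17 mice and of -0.17 after the group means were removed. The part of depth in the result was not tested.

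In microglia isolated from the hippocampus with myelin removal and CD11b beads, the same 9 genes were read as transcripts that microglia are not known for. The cells carried their own markers: P2ry12, a receptor of resting microglia, had 39953 to 51157 normalized counts in PF4 microglia and 34694 to 50802 in saline microglia, or 3061 to 4425% of its share of counted reads in saline hippocampi. Such shares set separate experiments side by side, so the tissue and the experiment cannot be told apart in them. The oligodendrocyte factors Sox10 and Myrf were at 0 or under 1 normalized count in every library but Saline-4, where Sox10 had 37.1. Other factors of that list were present in some libraries. Olig1 ran from 0 to 517 in PF4 microglia and from 0 to 298 in saline microglia. Zfp536 reached 1649 in a PF4 library and Olig2 192 in a saline library, whereas Nkx6-2 was at 0 throughout and St18 reached 6.21. Of the 9 genes, 6 passed the filter on low values (a normalized count of 10 in at least 3 libraries), and Cldn11, Mog and Opalin did not. None of the 6 passed the threshold of the study's methods for microglia, an unadjusted P of 0.01, which 0.389% of 11320 genes passed, and none had P under 0.05 with limma, edgeR or DESeq2 (Mag had the smallest; DESeq2 gave a P for 4 of the 6).

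The 2 basic protein genes, whose mRNA travels into the sheath, spanned orders of magnitude between libraries of 1 treatment. Mbp had 1178, 51.1, 3597 and 168405 normalized counts in PF4-1 to PF4-4, against 648, 4515 and 26034 in Saline-2 to Saline-4. The highest and the lowest value of all 7 libraries were thus both in PF4 mice. Mobp had 9.13, 432, 154 and 12066 in PF4-1 to PF4-4, against 95.6, 181 and 1529 in Saline-2 to Saline-4. Library PF4-4 held 123% of the Mbp and 188% of the Mobp of the mean saline hippocampus, as shares of counted reads, but 47.3% of its Mog, 23.6% of its Cldn11 and 7.52% of its Opalin. The fitted differences were -0.78 ± 2.25 for Mbp (95% interval -5.81 to 4.25) and 0.00 ± 2.05 for Mobp (-4.58 to 4.59), so that no difference of a size seen in the hippocampus could be detected. These values depended on the tool, with 2.03 for Mbp and 2.37 for Mobp in edgeR and 2.06 and 2.40 in DESeq2.

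Mog, Opalin and Cldn11 were at or near 0 in 5 of the 7 microglia libraries. Mog had 798 normalized counts in PF4-4 and 0.761, which is 1 read, in PF4-1, and 0 in the other 5 libraries. Opalin had 55.9 in PF4-4, 15.7 in Saline-4 and 0 in the other 5. Cldn11 had 734 in PF4-4, 88.1 in Saline-2 and under 1 in the other 5. A value of 0 here is 0 counted reads in libraries of 19855188 reads or more, and does not show that the transcript was absent.

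Cnp and Mag were present in libraries in which other myelin transcripts were at or near 0. Cnp had 3375, 2473, 4993 and 6963 in PF4-1 to PF4-4, against 3009, 5971 and 4091 in Saline-2 to Saline-4. It was the steadiest of the 9, the highest library having 2.82 times the lowest, with 17.1 to 45.6% of its share of counted reads in saline hippocampi and a difference of -0.02 ± 0.37. Mag had 0.761, 1158, 2663 and 1284 in PF4-1 to PF4-4, against 1846, 2979 and 2046 in Saline-2 to Saline-4. It was thus present in 6 of 7 libraries at 19.1 to 46.3% of its share of counted reads in saline hippocampi, and at 1 read in PF4-1. Saline-2 held 1846 normalized counts of Mag with 0 of Mog and 0 of Opalin. The difference of Mag, -2.95 ± 2.13 (P = 0.197; exact permutation P = 0.171), rested on PF4-1, without which it was -0.50, and it was -0.83 with edgeR and -0.84 with DESeq2. The gene next to Mag on the same strand is Cd22, which encodes a sialic acid receptor of aged microglia and lies 18833 bases away. Cd22, named after its values were seen, had 190, 841, 1290 and 1104 in PF4-1 to PF4-4, against 264, 2435 and 546 in Saline-2 to Saline-4, lowest where Mag was lowest and highest where Mag was highest. Whether reads were shared was not tested.

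Mal and Apod followed other libraries again. Mal had 913, 863, 12.3 and 514 in PF4-1 to PF4-4, against 1523, 586 and 85.7 in Saline-2 to Saline-4, and its 2 lowest libraries, PF4-3 and Saline-4, were among the 4 highest for Mbp. Apod had 225, 728, 111 and 1072 in PF4-1 to PF4-4, against 755, 290 and 206 in Saline-2 to Saline-4, a difference of 0.07 ± 0.94 (P = 0.942; exact permutation P = 0.971). Its 3 highest libraries, PF4-2, PF4-4 and Saline-2, were the 3 with 197501 to 501960 normalized counts of Ttr, against 641 to 884 in the other 4. Apod had 728 to 1072 in those 3 and 111 to 290 in the other 4, and Ptgds had 3420 to 5732 and 6.17 to 98.5. After the group means were removed, Apod had a correlation of 0.94 over the 7 libraries with the choroid plexus list and 0.95 with the ependymal list, whose summed levels ran from 678 to 515999 and from 58 to 1617 in PF4 microglia, and from 680 to 202421 and from 62.1 to 793 in saline microglia. No choroid plexus gene was at 0 in a group, 3 of the 9 ependymal genes were at 0 in PF4 microglia and 2 in saline microglia, and their part in the Apod values was not tested. Without these 3 libraries, an omission chosen after seeing the data, Apod differed by -0.63 and Mbp by -2.40, and neither passed.

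**Figure D5:**
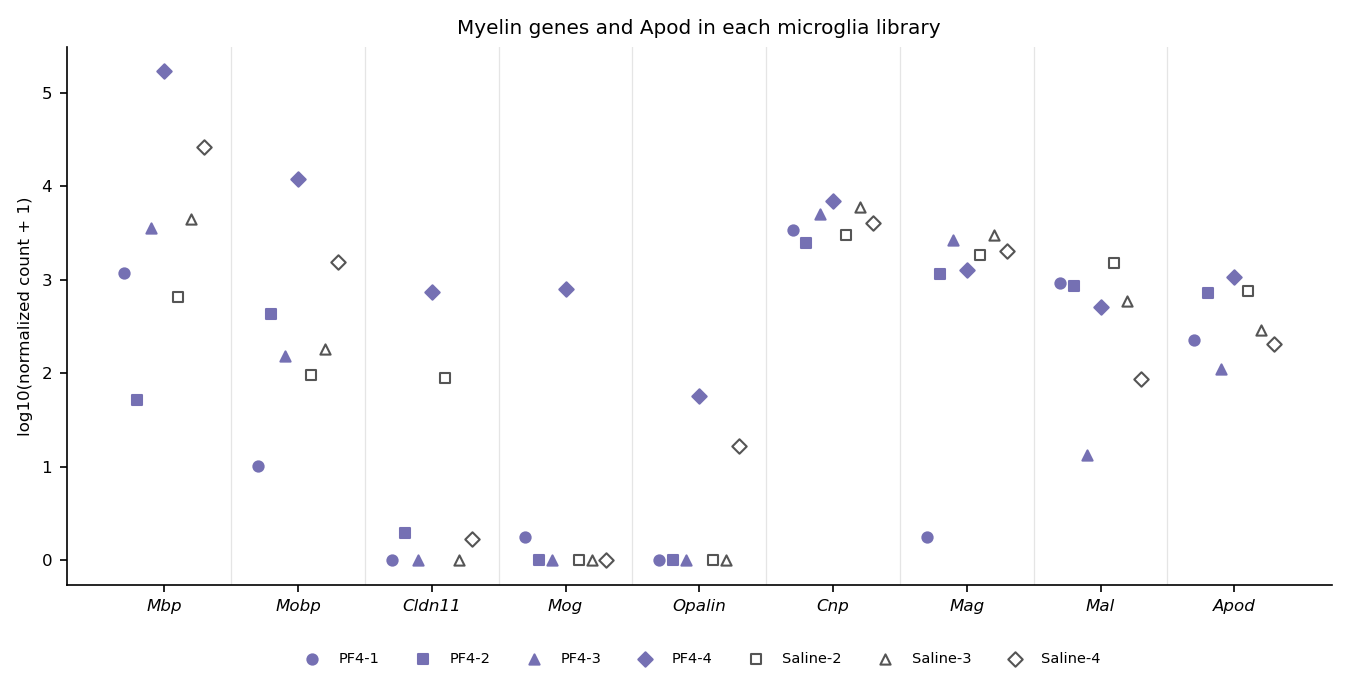
The 8 sheath genes and Apod in each microglia library, as log10(normalized count + 1); filled symbols, PF4 mice; open symbols, saline mice. Library PF4-4 is highest for 7 of the 9 genes, Mag and Mal excepted, Mog and Opalin lie at 0 in 5 libraries each, and Cnp varies least.

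The steady proportions between genes seen in the hippocampal libraries were not seen in the microglia libraries. These come from a separate experiment, so the tissue and the experiment cannot be told apart. Mbp had 18.9 to 24.0 reads for each read of Mag in the 17 hippocampi, with a median of 21.4, but 0.0441 to 131 in the 6 microglia libraries with more than 3 reads of Mag. Mbp had 15.3 to 24.5 reads for each read of Mobp in hippocampi and 0.118 to 129 in the 7 microglia libraries, 13.96 in PF4-4. The correlations between pairs of sheath genes over the 7 libraries had a median of 0.46 and ran from -0.43 to 0.86 after the group means were removed. Wide ranges were common in these libraries. Of 11016 genes that averaged 50 normalized counts or more, 47.2% differed at least 10-fold between the highest and the lowest library (3 reads where the lowest had fewer), with 30.9% at least 100-fold, against 0.762% and 0.0753% of 10628 genes in the hippocampi. Of the 9 genes, 6 reached 100-fold in microglia on that basis, and none reached 5-fold in the hippocampi. The source of the myelin transcripts in the microglia libraries was not tested.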

How the data were processed

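RNA was measured by sequencing in 17 hippocampal and 7 microglia libraries. Per the labels, polyA RNA went into a strand-specific kit, whereas the study's methods describe a modified Smart-Seq2 protocol, so the library type is not settled. By the study's methods, the authors used STAR for alignment to the mm10 transcriptome, RSEM for counts and DESeq2 for the comparisons. The deposited signal values are counts scaled by a size factor for each library, in 3 tables, and the authors' fold changes and p-values in the same tables were not used. All values were whole multiples of what 1 read was worth in their library (100% within 0.01), and PCR reads without molecular identifiers are not independent molecules.

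Each table was fitted alone with limma 3.58.1 (trend) in R 4.3.3 on log2(normalized count + 1), keeping genes with a normalized count of 10 in at least 5 hippocampal or 3 microglia libraries. Thresholds were those of the study, unadjusted P of 0.05 (hippocampus) and 0.01 (microglia), with Benjamini-Hochberg adjustment over all genes beside them. For young platelet fraction against young plasma, the tables were joined through their shared saline libraries (factor 0.99489; saline values 0.418 to 0.666% higher in the platelet table). Alternatives were edgeR 4.0.16 and DESeq2 1.42.0 on recovered reads, other scalings, pseudocounts and filters, and leaving out libraries. Permutation tests used SciPy 1.17.1. Fits were tested on simulated data. Labels give 1 mouse number per hippocampal library and nothing on separate isolations of microglia, so P measures the spread between these libraries.

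The members and lists were chosen with earlier results of these data known. Named were the 9 genes in each comparison, Ugt8a, Sox10, Myrf, Trf, Pdgfra, Ptgds and Apoe by role, those most like the mean of the 9 and the 5 most like Apod, and defining genes of the other cell lists. An item that this rule names is not reported here.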

Additional observations from a re-analysis of the deposited data

Results flagged for a closer look

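In the PF4 microglia, 5 values stood apart from the other 3 libraries of their group, by a gap of more than 0.829 of the group's range of log2(normalized count + 1), the critical value for 4 libraries. In library PF4-4, Cldn11 (gap over range 0.898; 734 normalized counts against 0 to 0.964 in the other PF4 libraries), Mog (0.915; 798 against 0 to 0.761) and Opalin (1.0; 55.9 against 0) were highest. In library PF4-3, Mal was lowest (0.865; 12.3 against 514 to 913). In library PF4-1, Mag was lowest (0.886; 1 read, against 1158 to 2663). These were 5 of 36 sets of a gene and a group. The critical value is set to flag about 5% of sets of continuous values by chance. That rate does not hold for Cldn11, Mog and Opalin, which had 0 or 1 read in each of the other PF4 libraries. The 5 of 36 can therefore not be set against it. The 3 sets in PF4-4 come from 1 library and are not separate observations.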

How the results depend on the processing

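Of the 9 genes, the number past the threshold with young plasma was 1 to 9 when single mice were left out (1 without saline mouse 7146, 4 without saline mouse 7152 or plasma mouse 7150, 5 without saline mouse 7155 or plasma mouse 7144 or 7156) and 1 without the 5 libraries that stood apart. With the young platelet fraction it was 8 to 9 and 6. Between young platelet fraction and young plasma it was 0 to 2, and 1 without the 5 libraries, and leaving out single mice gave log2 differences of -0.07336 to 0.1691 for Mag, -0.07541 to 0.1672 for Mbp and -0.001853 to 0.1725 for Cnp. Over all genes, higher calls with single mice left out ran from 168 to 327 with plasma and from 217 to 529 with the platelet fraction. In microglia no alternative brought a gene past the threshold. There, leaving out single libraries gave -2.81 to 1.076 for Mbp, -1.771 to 1.635 for Mobp, -1.804 to 0.7968 for Mal, -0.2729 to 0.2342 for Cnp and -0.4356 to 0.6506 for Apod. With edgeR and DESeq2, Mbp was 2.033 and 2.059, Mobp 2.367 and 2.396, and Mag -0.8285 and -0.8424. Mobp was -0.01121 with a pseudocount of 0.5, and Cnp 0.01508 with library totals, 0.03681 with edgeR and 0.03161 with DESeq2. Without the 3 libraries high in Ttr, Mobp was -3.738 and Apod -0.6274. With the replicate number as a block, Cnp was 0.0754, 0 of the 9 genes passed and 29 genes in all were called, against 44 without the block. Deviations of same-numbered microglia libraries had correlations of 0.136, 0.0586 and 0.0321, with the own number the best partner for 2 of 3. These 3 values cannot decide whether same-numbered libraries shared more than a number. Over all genes, calls without a filter numbered 679 for plasma against 456 with it and 561 against 311 between the treatments, and DESeq2 called 179 in microglia (139 higher and 40 lower) against 44 (25 and 19). The causes of these shifts were not tested. At 4 against 3 libraries with spreads this wide, the microglia fits could not detect differences of the size seen in the hippocampus.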
